A study of Mus musculus with 13 samples.

Results

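The cytoplasmic ribosomal protein genes were taken as every gene of the count table whose symbol begins with Rpl or Rps followed by a number, with an optional a, l or x and number after it, together with Rplp0, Rplp1, Rplp2 and Rpsa. The rule uses names alone. It found 88 genes, beside 43323 others in the table, and 82 of them had enough counts to be tested. Of the tested genes, 32 encode small subunit proteins or copies named like them, 43 encode large subunit proteins, 3 encode the P stalk and 4 have paralog names ending in l (Rpl22l1, Rpl7l1, Rps27l and Rps4l).

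The ribosome translates mRNA into protein, and each of its proteins is encoded by its own gene, scattered over the genome. The small subunit reads the codons, the large subunit joins the amino acids, and the P stalk of the large subunit draws in the translation factors. The mRNAs of these proteins carry a 5′ terminal oligopyrimidine (TOP) tract, a run of C and U at their start through which mTORC1 and the binding protein LARP1 regulate their translation and stability. Glial proliferation and immune cell activation need new ribosomes, and neurons also keep ribosomes in dendrites.

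RNA was measured in perfused brain hemispheres taken from 7 wild type male mice of strain C57BL/6, 12 to 16 weeks old, 4 days after controlled cortical impact (CCI), in which a piston strikes the exposed cortex, or after a sham operation. No transgene or drug was used. On the side of surgery there were 4 CCI libraries (CCI ipsilateral, from animals 1, 2, 3 and 5) and 2 sham libraries (sham ipsilateral, from animals 4 and 6). On the opposite side there were 4 CCI libraries (CCI contralateral, animals as before) and 3 sham libraries (sham contralateral, from animals 4, 6 and 8). Ipsilateral libraries are all named RH and contralateral ones LH, read as right and left hemisphere, so side of surgery and right or left cannot be told apart. In whole hemispheres, more of an mRNA per cell and more cells that hold it cannot be told apart either. Totals were 7126708 to 7955076 counts in CCI ipsilateral, 5908022 to 6874956 in sham ipsilateral, 5604856 to 7444568 in CCI contralateral and 6578614 to 6855548 in sham contralateral libraries. The 11 tested neuronal markers together had between 8816 and 12465 CPM in every library, although Gad2 and the astrocyte marker Vim were listed at 0 in all of them.

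The starts of several of these genes are shown because the TOP tract begins at the transcription start. Each line is the 30 bases before and the 30 bases from the RefSeq start onward on GRCm38.p6, with the longest run of C and T in capitals. The first group holds genes that were higher in CCI ipsilateral than in CCI contralateral hemispheres or among the most raised against sham ipsilateral ones, and the last 3 were lower in CCI ipsilateral than in CCI contralateral hemispheres.
Rplp0 (chr5:115559437-115559496, plus strand): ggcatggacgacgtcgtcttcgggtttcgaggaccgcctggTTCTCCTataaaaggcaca
Rpl7a (chr2:26910777-26910836, plus strand): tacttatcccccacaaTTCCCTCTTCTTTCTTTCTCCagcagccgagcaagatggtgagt
Rps4x (chrX:102189362-102189421, minus strand): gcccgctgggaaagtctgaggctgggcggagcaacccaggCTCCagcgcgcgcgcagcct
Rpl11 (chr4:136053364-136053423, minus strand): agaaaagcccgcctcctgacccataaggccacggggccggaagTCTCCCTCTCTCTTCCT
Rps27l (chr9:66946056-66946115, plus strand): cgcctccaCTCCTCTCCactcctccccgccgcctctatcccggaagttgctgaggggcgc
Rpl22l1 (chr3:28805478-28805537, plus strand): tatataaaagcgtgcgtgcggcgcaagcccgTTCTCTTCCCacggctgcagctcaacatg
Rps21 (chr2:180257349-180257408, plus strand): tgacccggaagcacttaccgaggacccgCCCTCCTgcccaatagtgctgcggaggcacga
Rpl38 (chr11:114668550-114668609, plus strand): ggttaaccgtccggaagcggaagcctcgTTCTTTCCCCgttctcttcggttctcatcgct

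The longest run measured 21 bases in Rpl7a, 17 in Rpl11, 10 in Rpl22l1 and Rpl38, 9 in Rps27l, 7 in Rplp0 and Rps21, and 4 in Rps4x. These runs need not be the TOP tract itself. That of Rps27l lay wholly before the start, and those of Rplp0, Rps4x and Rpl11 began at bases 12, 11 and 14 after it. The Rpl11 run reached the last base shown, so its full length was not measured. As printed, the genes higher in CCI ipsilateral hemispheres include both the longest and the shortest run, and the 3 lower ones lie between them. RefSeq's promoter table had 75 starts for 63 of the 88 genes. A run of at least 8 C or T on the transcript strand lay within 50 bases of the start in 58 of these 75 promoters (77.3%), against 11741 of all 32851 promoters in the table (35.7%). The letters CCGGAA, searched on both strands from 250 bases before to 50 after the start, were in 48.0% of the ribosomal protein promoters and 14.9% of all. TATAAA, on the transcript strand within 50 bases of the start, was in 6.67% and 3.40%. The first T of TATAAA and the first 2 bases of CCGGAA can belong to a C or T run. So can the letters TTCC where CCGGAA lies on the other strand and reads TTCCGG. Each match is a description of letters, not a test of binding.

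As a group these mRNAs were abundant and close in level. Mean TPM, an abundance scaled for length and library size, had a median of 437.6 over the 82 tested genes, and 70 of them lay between 200 and 1000 TPM. The highest mean levels were 1622 TPM for Rplp1, an acidic P stalk protein, 1199 TPM for Rps29 and 1154 TPM for Rpl41. The lowest were 9.43 TPM for Rps3a2, 29.4 TPM for Rpl12 and 30.8 TPM for Rps4l. Rps3a2 and Rps4l are annotated as pseudogenes, as are 3 of the 6 genes with too few counts. Of those 6, Rpl10l and Rps12l1 had 0 counts in all 13 libraries, Rps12l2 had 2.2 estimated counts in all, Rpl39l had 8, Rpl3l had 14 and Rps3a3 had 36.7. Rpl10l and Rpl39l are known from the testis, and Rpl3l from heart and skeletal muscle.

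A further 256 genes of the table are pseudogenes named after these genes, and reads from near-identical copies can be divided between them. Rps12, Rpl27, Rpl10, Rpl12 and Rpl10a, among others, are less certain for this reason. Rps12 had 78.1, 68.0, 60.9 and 52.6 CPM in CCI ipsilateral libraries, against 66.6 and 37.0 CPM in sham ipsilateral ones. It had 40.9, 45.3, 75.3 and 28.8 CPM in CCI contralateral libraries, against 40.4, 27.0 and 58.0 CPM in sham contralateral ones. Its libraries overlapped between all groups. The named pseudogenes together held 0.0384% to 0.0557% of all counts in a library.

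The ribosomal protein genes took 1.46%, 1.35%, 1.37% and 1.38% of all counts in CCI ipsilateral libraries (animals 1, 2, 3 and 5), against 1.14% and 1.03% in sham ipsilateral ones (animals 4 and 6). They took 1.30%, 1.32%, 1.39% and 1.34% in CCI contralateral libraries, against 1.28%, 1.19% and 1.26% in sham contralateral ones (animals 4, 6 and 8). The 2 sham ipsilateral libraries were the lowest of all 13, and the sham contralateral ones came next. The means were 1.39% ± 0.0446 in CCI ipsilateral (SD, n = 4), 1.08% ± 0.0784 in sham ipsilateral (n = 2), 1.34% ± 0.0362 in CCI contralateral (n = 4) and 1.24% ± 0.0492 in sham contralateral libraries (n = 3).

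**Figure D1:**
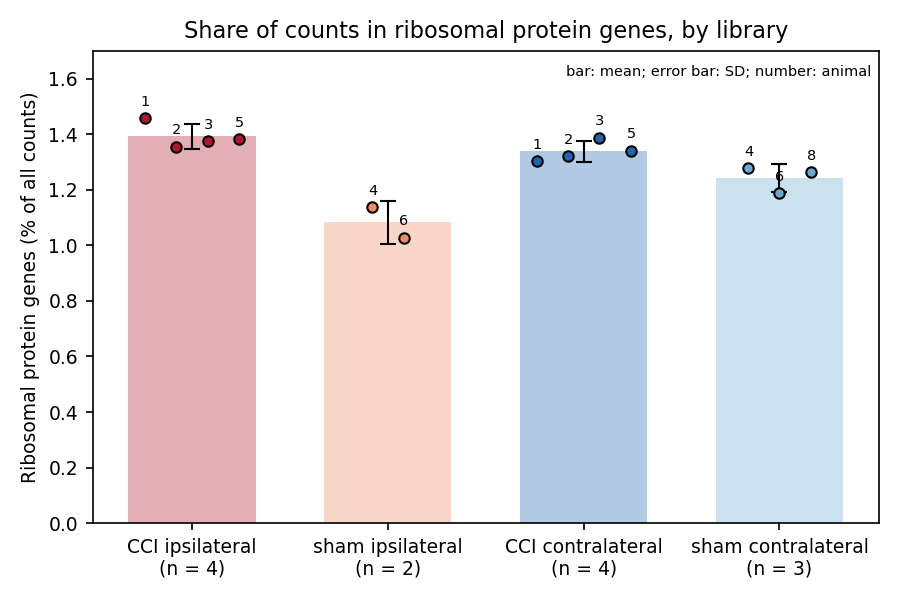
Share of all counts in the 88 ribosomal protein genes (percent) in each library, by group; points are libraries numbered by animal, bars are means and error bars SD. The 2 sham ipsilateral libraries, at 1.14% and 1.03%, lie below the other 11.

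In an exact two-sided permutation test, the share in CCI ipsilateral against sham ipsilateral libraries gave p = 0.133, the smallest that 4 against 2 allow, with no overlap and a ratio of 1.29. In CCI contralateral against sham contralateral libraries it gave p = 0.0571, the smallest that 4 against 3 allow by exact permutation, with no overlap and a ratio of 1.08. CCI ipsilateral and CCI contralateral libraries overlapped (ratio 1.04, exact permutation p = 0.114). Sham ipsilateral libraries were below sham contralateral ones without overlap (ratio 0.871), and exact permutation gave p = 0.2, the smallest that 2 against 3 allow. After adjustment over these 4 comparisons p was 0.178 in the first 3 and 0.2 in the last (exact permutation, Benjamini-Hochberg). The ratio of summed TPM, which removes gene length, was 1.28 for CCI ipsilateral over sham ipsilateral and 0.877 for sham ipsilateral over sham contralateral.

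Of the 82 tested genes, 64 rose in CCI ipsilateral relative to sham ipsilateral hemispheres and none fell, at an edgeR adjusted p under 0.05 over all 14875 genes tested. Among all genes tested, 12.5% rose and 10.0% fell. At an unadjusted p under 0.05, Rps4l alone was lower. DESeq2 called 61 higher and none lower, against 9.64% and 8.3% of all genes. The median log2 fold change was 0.30 over the ribosomal protein genes and 0.004 over all genes, and 80 of the 82 values were above 0, against 50.5% of all genes. Libraries did not overlap, with CCI ipsilateral above sham ipsilateral, in 70 of the 82, against 21.8% of all genes. The rise was called in 28 of 32 small subunit genes (median log2 fold change 0.32), 32 of 43 large subunit genes (0.28), all 3 P stalk genes (0.33) and 1 of 4 paralogs.

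How much of this count stands depends on the sham libraries. Without the sham ipsilateral library of animal 6 most of the 64 calls were lost, and without that of animal 4 a smaller part. Among all genes, too, fewer were called in both fits than with all libraries. Each fit left 1 sham ipsilateral library, assumed to vary like the other groups. When CCI ipsilateral was set against the 3 sham contralateral libraries instead, an alternative chosen after seeing the data, 22 genes rose, 19 of them among the 64, Rpl22l1 fell, and the median log2 fold change was 0.11; of all genes 12.4% rose and 8.85% fell there. Of the 64 calls, 14 held in each of the 25 alternatives tried, among them Rpl18, Rpl22, Rpl7, Rplp0, Rps20, Rps4x, Rps6, Rps9 and Rpsa. The authors' deposited table, in its own DESeq2 comparison of these groups, calls 8 of the ribosomal protein genes higher and 1 lower (Rpl5), of 83 with an adjusted p. Those called higher include Rplp0, Rpl7l1, Rps4x and Rpsa. Of all 17404 genes with an adjusted p there, 1704 are called higher and 1157 lower, so 8 of 83 is near the share of all genes. The median log2 estimate in the authors' deposited table is 0.14 over the ribosomal protein genes and 0.02 over all its genes. The sources used here do not give the libraries that entered it.

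**Figure D2:**
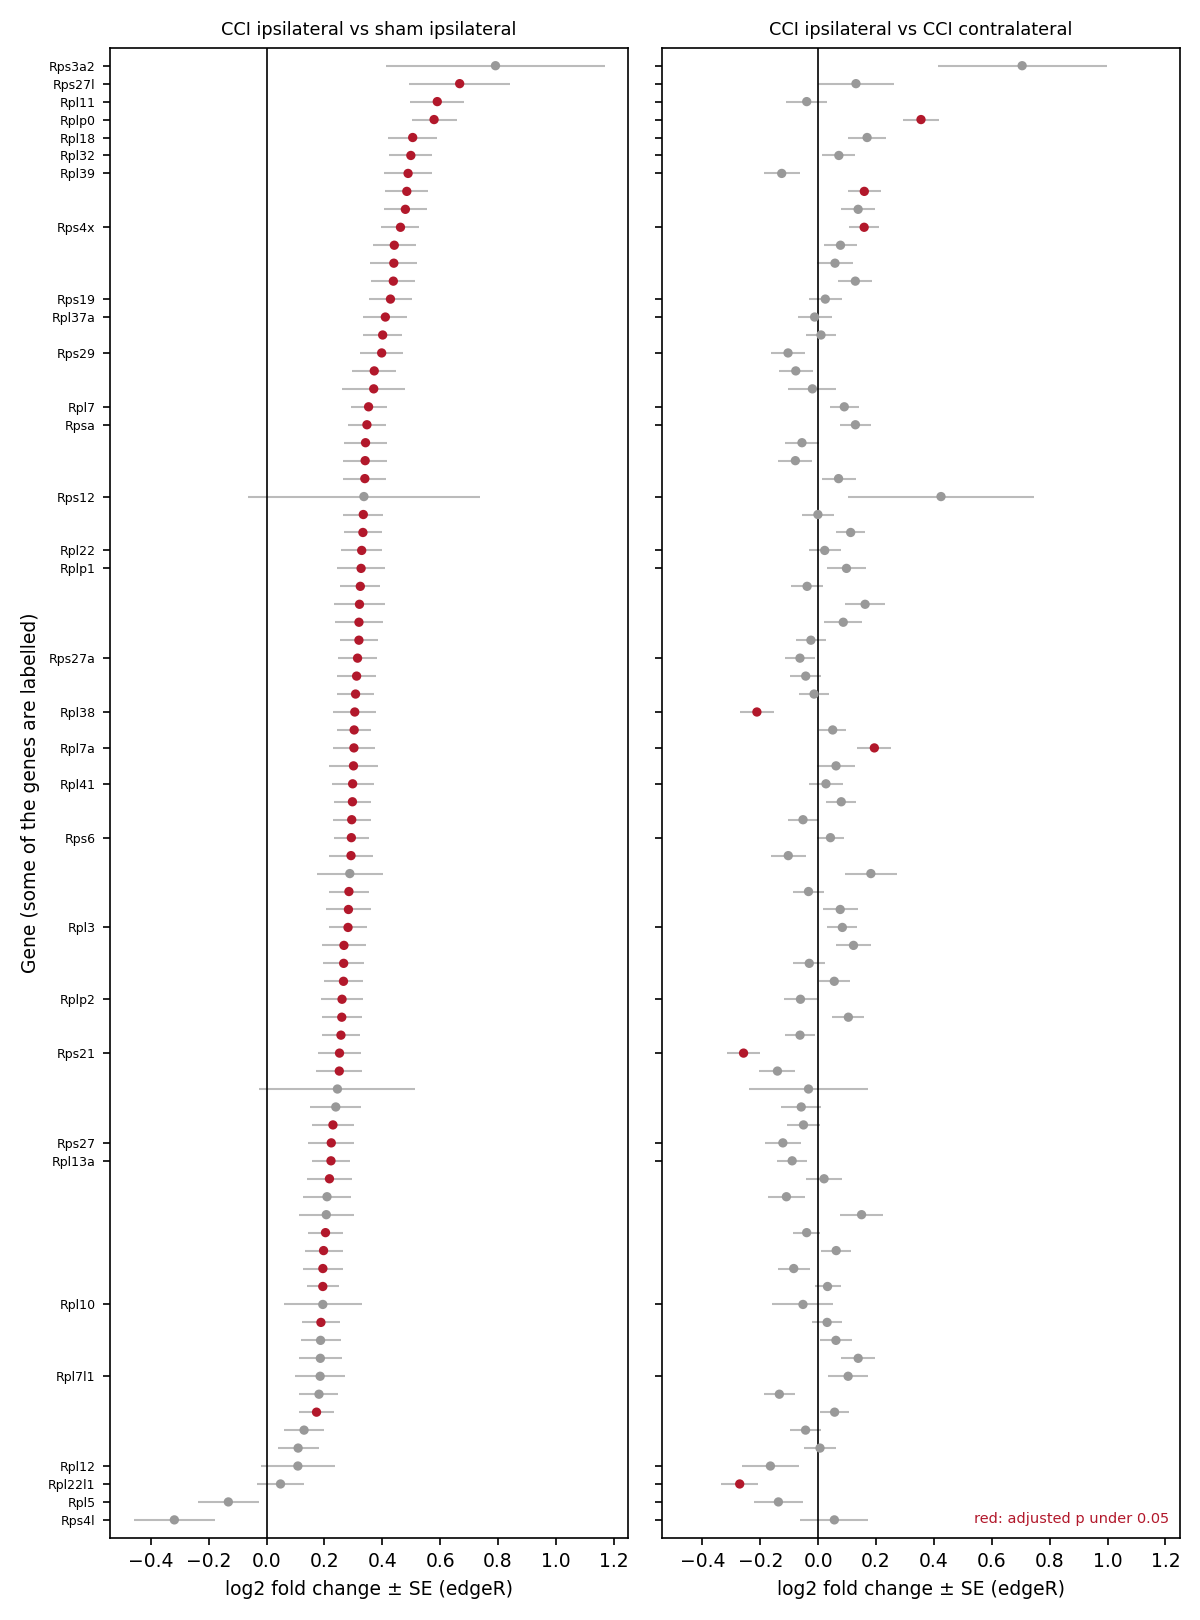
log2 fold change ± SE (edgeR) of the 82 tested ribosomal protein genes, 1 row per gene, in CCI ipsilateral against sham ipsilateral (left) and against CCI contralateral (right); red marks an adjusted p under 0.05. On the left 64 genes are called, all above 0; on the right 4 are called above 0 and 3 below.

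Among the P stalk genes, Rplp0, which encodes the protein that anchors the stalk to the ribosome, had 224, 201, 224 and 246 CPM in CCI ipsilateral libraries, against 158 and 142 CPM in sham ipsilateral ones. It had 161, 170, 184 and 186 CPM in CCI contralateral libraries, against 173, 153 and 159 CPM in sham contralateral ones. Each CCI ipsilateral library was above all 9 others. Rplp0 (chr5:115559467-115563727) rose against sham ipsilateral libraries with a log2 fold change of 0.58 ± 0.08 (SE, adjusted p = 2.47e-06) and against CCI contralateral ones with 0.36 ± 0.06 (SE, adjusted p = 6.74e-05). Both calls held in every alternative, and against sham contralateral libraries its log2 fold change was 0.47.

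Rplp1 and Rplp2 encode the acidic stalk proteins, and whether their mRNAs changed by another amount than that of Rplp0 was not tested. Rplp1 had 415, 375, 359 and 401 CPM in CCI ipsilateral libraries, against 341 and 278 CPM in sham ipsilateral ones. Its log2 fold change was 0.33 ± 0.08 (SE, adjusted p = 0.00576), not called without the sham ipsilateral library of animal 6 (adjusted p = 0.249), and it was 0.10 against CCI contralateral libraries (adjusted p = 0.336). Rplp2 rose by 0.26 ± 0.07 on the log2 scale against sham ipsilateral libraries (SE, adjusted p = 0.00886), a call lost without the sham ipsilateral library of animal 6 (adjusted p = 0.113).

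Rps4x, the X-linked small subunit gene, had 319, 293, 315 and 305 CPM in CCI ipsilateral libraries, against 224 and 223 CPM in sham ipsilateral ones. It had 262, 281, 300 and 259 CPM in CCI contralateral libraries, against 257, 245 and 270 CPM in sham contralateral ones. The CCI ipsilateral libraries lay above all sham libraries of both hemispheres, and 1 of them lay within the CCI contralateral range. Rps4x (chrX:102184941-102189394) rose with a log2 fold change of 0.46 ± 0.07 against sham ipsilateral (SE, adjusted p = 4.49e-06) and 0.16 ± 0.05 against CCI contralateral libraries (SE, adjusted p = 0.0255). The rise against sham ipsilateral libraries held in all 25 alternatives. That against CCI contralateral ones was lost in 5 of 24, each with 1 CCI library left out: the CCI ipsilateral one of animal 1, 3 or 5 or the CCI contralateral one of animal 1 or 5 (adjusted p of 0.0516 to 0.0949).

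Rps6, the substrate of S6 kinase and a common readout of mTORC1 activity at the protein level, had 280, 255, 264 and 266 CPM in CCI ipsilateral libraries, against 224 and 210 CPM in sham ipsilateral ones. The groups did not overlap, and Rps6 rose with a log2 fold change of 0.29 ± 0.06 (SE, adjusted p = 0.000499). Its log2 fold change against CCI contralateral libraries was 0.04 (adjusted p = 0.595). Rpsa, which is also known as a laminin receptor, rose by 0.35 ± 0.07 against sham ipsilateral libraries on the log2 scale (SE, adjusted p = 0.000245), averaging 424 ± 32.8 CPM in CCI ipsilateral and 334 ± 29.1 CPM in sham ipsilateral libraries (SD, n = 4 and 2).

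Rps19, whose loss causes Diamond-Blackfan anaemia in humans, rose by 0.43 on the log2 scale against sham ipsilateral libraries (adjusted p = 7.17e-05). Rps27a, made as a fusion with ubiquitin, rose by 0.31 (adjusted p = 0.000702). Rpl13a, which in human monocytes also silences inflammatory mRNAs, rose by 0.22 (adjusted p = 0.0128). Against CCI contralateral libraries the log2 fold changes of these 3 genes were 0.02, -0.06 and -0.09, and none was called. All 3 calls also ended against sham contralateral libraries, where the log2 fold change was 0.06 for Rps19 (adjusted p = 0.553), 0.10 for Rps27a (adjusted p = 0.219) and 0.05 for Rpl13a (adjusted p = 0.595). That of Rpl13a was lost as well without the sham ipsilateral library of animal 6 (adjusted p = 0.195).

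Rpl5 and Rpl11 bind 5S rRNA together and, when ribosome assembly fails, can bind the p53 regulator Mdm2. Rpl11 had 155, 150, 131 and 142 CPM in CCI ipsilateral libraries, against 105 and 87.7 CPM in sham ipsilateral ones. It had 152, 155, 144 and 143 CPM in CCI contralateral libraries, against 130, 112 and 147 CPM in sham contralateral ones. The sham ipsilateral libraries stood below all the others, and the CCI ipsilateral and CCI contralateral libraries overlapped. Rpl11 (chr4:136028265-136053428) rose against sham ipsilateral libraries with a log2 fold change of 0.59 ± 0.09 (SE, adjusted p = 4.81e-05). Its log2 fold change was 0.16 against sham contralateral libraries (adjusted p = 0.165) and -0.04 against CCI contralateral ones (adjusted p = 0.754).

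Its partner did not pass the test. Rpl5 had 35.5, 40.7, 32.2 and 31.0 CPM in CCI ipsilateral libraries, against 36.5 and 39.9 CPM in sham ipsilateral ones. These overlapped, and its log2 fold change was -0.13 ± 0.10 (SE, adjusted p = 0.42). The authors' deposited table gives Rpl5 a log2 estimate of -0.68 with an adjusted p of 0.0451.

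Among the large subunit genes with the largest rises against sham ipsilateral libraries, Rpl18 had a log2 fold change of 0.51 ± 0.09 (SE, adjusted p = 4.75e-05), Rpl32 had 0.50 ± 0.07 (SE, adjusted p = 8.89e-06) and the X-linked Rpl39, a small protein of the exit tunnel, had 0.49 ± 0.08 (SE, adjusted p = 4.41e-05). Set against sham contralateral libraries, the log2 fold change was 0.29 for Rpl18 (adjusted p = 0.00295), 0.13 for Rpl32 (adjusted p = 0.161) and 0.02 for Rpl39 (adjusted p = 0.852). Rpl18 passed the test against either sham group and the other two only against sham ipsilateral.

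The paralogs differed from one another in value. Rps27l, a paralog of Rps27 known as a p53 target, had 9.12, 11.2, 12.6 and 11.6 CPM in CCI ipsilateral libraries, against 7.23 and 6.79 CPM in sham ipsilateral ones. The groups did not overlap, and its log2 fold change of 0.67 ± 0.18 (SE, adjusted p = 0.00539) was the largest among the genes called. The call was lost without the sham ipsilateral library of animal 6 (adjusted p = 0.0929) and against sham contralateral libraries, where the value was 0.35 (adjusted p = 0.0862). Its parent Rps27 rose by 0.22 ± 0.08 (SE, adjusted p = 0.0405), a call lost without either sham ipsilateral library (adjusted p of 0.322 without animal 6 and 0.0838 without animal 4). Whether the changes of paralog and parent differ was not tested.

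Rpl22l1, the paralog that Rpl22 represses in mice, had 64.7, 59.1, 60.4 and 54.8 CPM in CCI ipsilateral libraries, against 56.7 and 58.7 CPM in sham ipsilateral ones. It had 70.9, 71.5, 73.2 and 72.5 CPM in CCI contralateral libraries, against 72.3, 76.5 and 66.2 CPM in sham contralateral ones. Every ipsilateral library was below every contralateral one, in CCI and sham animals alike. Rpl22l1 (chr3:28805436-28807424) had a log2 fold change of 0.05 ± 0.08 against sham ipsilateral libraries (SE, adjusted p = 0.733) and fell against CCI contralateral ones, with a log2 fold change of -0.27 ± 0.06 (SE, adjusted p = 0.00194). In sham animals the ipsilateral minus contralateral value was -0.31 ± 0.08 (SE, adjusted p = 0.426), and the 2 hemisphere differences were 0.04 apart (adjusted p = 0.878). Its parent Rpl22 rose by 0.33 ± 0.07 against sham ipsilateral libraries (SE, adjusted p = 0.000842), and its log2 fold change against CCI contralateral ones was 0.02 (adjusted p = 0.825).

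The other paralogs were not called. Rpl7l1 had a log2 fold change of 0.19 ± 0.09 against sham ipsilateral libraries (SE, adjusted p = 0.134), and its parent Rpl7 rose by 0.35 ± 0.06 (SE, adjusted p = 8.78e-05). Rps4l had -0.32 ± 0.14 (SE, adjusted p = 0.107), and was the lowest of the 82 values. Rpl3, parent of the barely detected Rpl3l, rose by 0.28 ± 0.06 (SE, adjusted p = 0.00158), a call lost once animal 6 was left out of the sham ipsilateral group (adjusted p = 0.148), while Rpl10, a late-joining large subunit protein, had 0.19 ± 0.13 (SE, adjusted p = 0.353). Rps3a2, with the largest value of the 82, ranged from 0.861 to 5.98 CPM over the ipsilateral libraries, which overlapped (log2 fold change 0.79 ± 0.38, SE, adjusted p = 0.146).

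**Figure D3:**
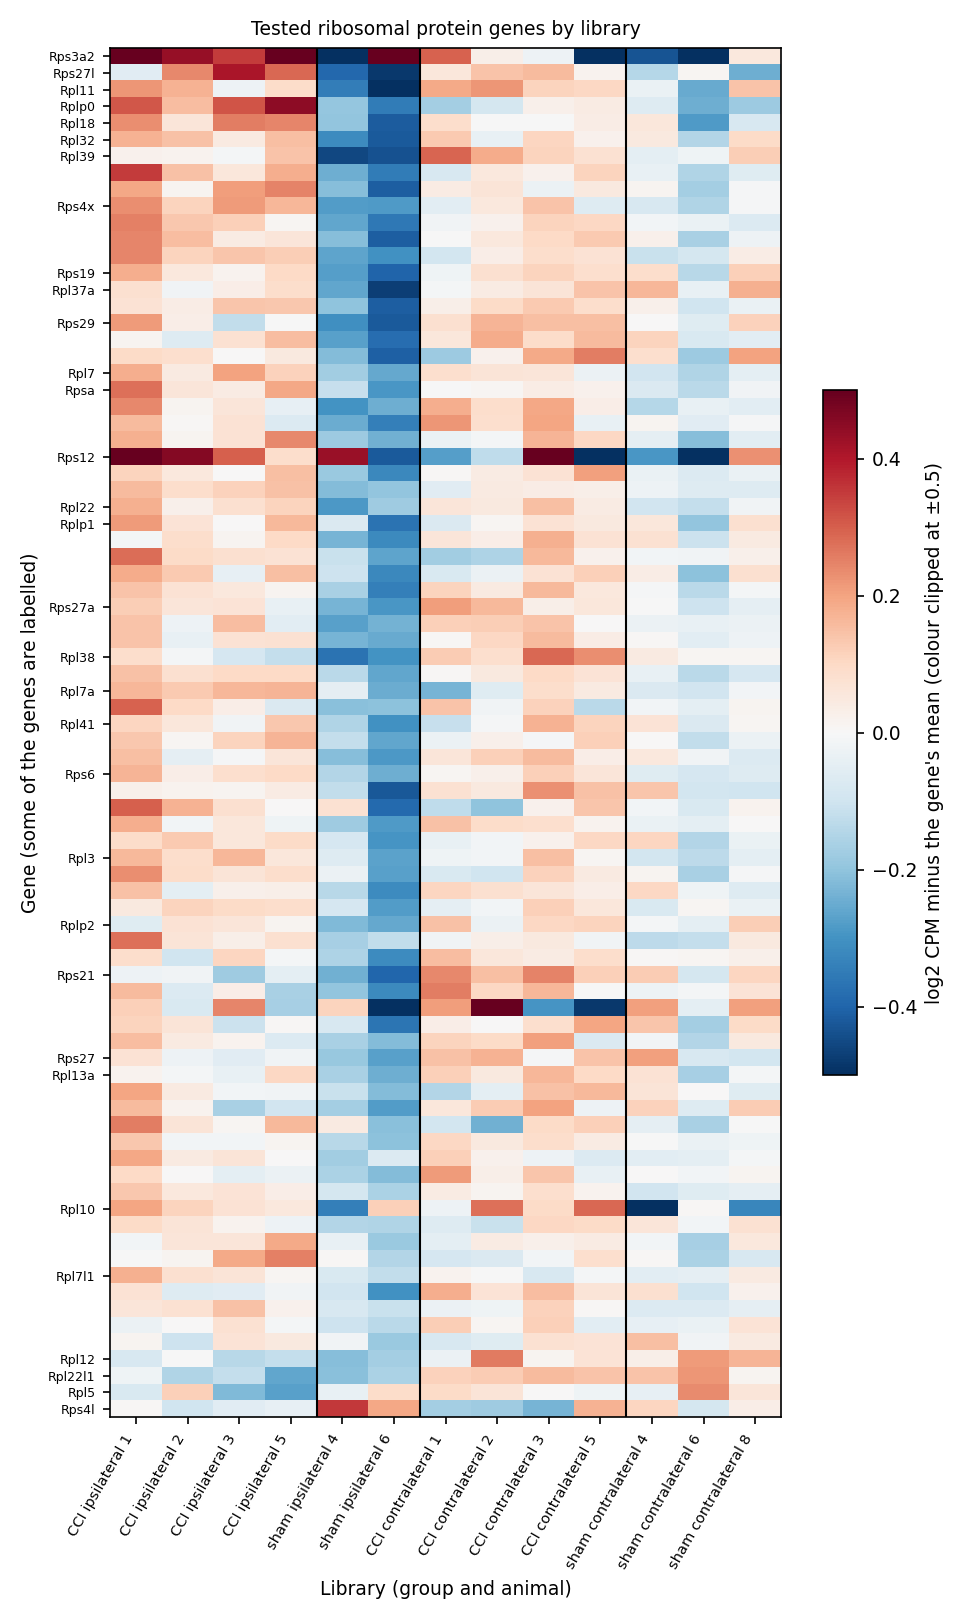
log2 CPM of the 82 tested ribosomal protein genes (rows, in the order of their fold change in CCI ipsilateral against sham ipsilateral) in 13 libraries (columns), each relative to the gene's own mean over the libraries; colour is clipped at ±0.5. In the 2 sham ipsilateral libraries 6 and 4 of the 82 genes lie above their own mean, against 58 to 72 in the CCI ipsilateral libraries.

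Between the hemispheres of CCI mice the group showed little common change. Of the 82 genes, 4 rose and 3 fell in CCI ipsilateral relative to CCI contralateral hemispheres, against 12.8% and 8.9% of all genes, and the median log2 fold change was 0.02. With the animal as a block, 8 rose and 5 fell, against 14.1% and 11.4% of all genes. Rplp0, Rpl7a and Rps4x rose in both fits, and the block added Rpl18, Rps2, Rps9 and Rpsa. Those that fell in both were Rpl22l1, Rps21 and Rpl38, the block adding Rpl35a and Rpl9. Without the CCI ipsilateral library of animal 1, 2 rose and 6 fell, against 11.7% and 7.99% of all genes, and the median was -0.01. Without the CCI contralateral library of animal 1, 1 rose and 3 fell, against 10.9% and 6.65%. Without the CCI ipsilateral library of animal 5, 2 rose, against 9.71% of all genes. Without that of animal 2, 8 rose, against 13.7%. Of 84 ribosomal protein genes with an adjusted p in this comparison, the authors' deposited table calls Rplp0 alone. Of all 17911 genes with one, it calls 1125 higher and 349 lower.

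Rpl7a had 207, 202, 207 and 207 CPM in CCI ipsilateral libraries, against 157, 177, 196 and 190 CPM in CCI contralateral ones. The groups did not overlap, and Rpl7a, a large subunit protein, rose with a log2 fold change of 0.19 ± 0.06 (SE, adjusted p = 0.0153). The call was lost without the CCI contralateral library of animal 1 (adjusted p = 0.102).

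Rps21, a small subunit protein, had 118, 119, 107 and 116 CPM in CCI ipsilateral libraries, against 143, 134, 143 and 131 CPM in CCI contralateral ones. It had 102 and 91.5 CPM in sham ipsilateral libraries, against 132, 113 and 130 CPM in sham contralateral ones. Within CCI and within sham animals the ipsilateral libraries were below the contralateral ones. Rps21 (chr2:180257377-180258445) fell against CCI contralateral libraries, with a log2 fold change of -0.26 ± 0.06 (SE, adjusted p = 0.00149), and rose against sham ipsilateral ones by 0.25 ± 0.08 (SE, adjusted p = 0.0139); the rise turned to -0.12 against sham contralateral libraries (adjusted p = 0.202) and was not called without the sham ipsilateral library of animal 6 (adjusted p = 0.296).

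Rpl38, a large subunit protein needed for the translation of Hox mRNAs in mouse embryos, had 111, 104, 98.5 and 96.3 CPM in CCI ipsilateral libraries, against 114, 111, 128 and 123 CPM in CCI contralateral ones. The groups overlapped in 1 library each. It had 80.9 and 84.8 CPM in sham ipsilateral libraries, against 108, 105 and 105 CPM in sham contralateral ones. Rpl38 (chr11:114668524-114672331) fell against CCI contralateral libraries, with a log2 fold change of -0.21 ± 0.06 (SE, adjusted p = 0.0076), and rose against sham ipsilateral ones by 0.30 ± 0.07 (SE, adjusted p = 0.00296); against sham contralateral libraries the value was -0.05 (adjusted p = 0.64). The falls of Rpl22l1, Rps21 and Rpl38 against CCI contralateral libraries held in all 24 alternatives.

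**Figure D4:**
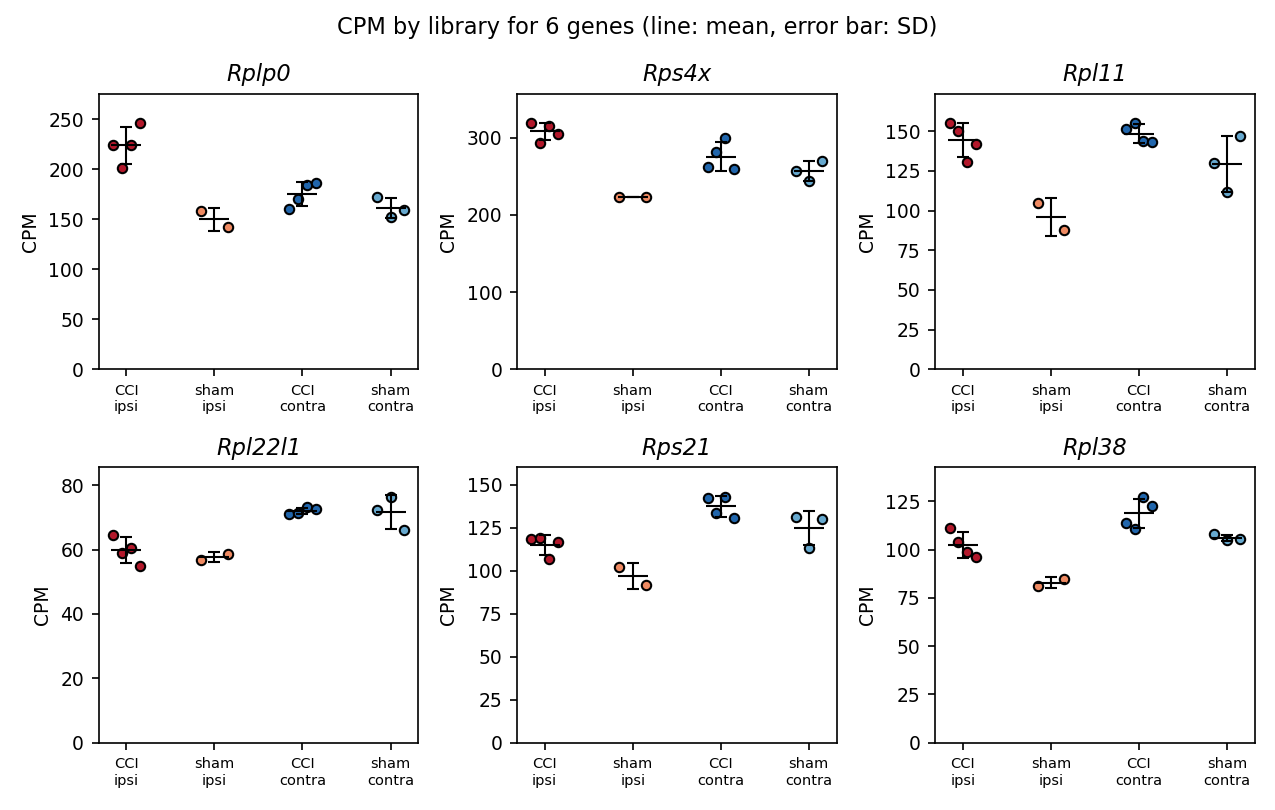
CPM of 6 ribosomal protein genes in each library, by group; points are libraries, horizontal lines means and error bars SD, and each axis starts at 0. Rplp0 and Rps4x are highest in the CCI ipsilateral group, Rpl11 is lowest in the sham ipsilateral one, and Rpl22l1, Rps21 and Rpl38 are lower in both ipsilateral groups than in their contralateral ones.

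In the contralateral hemisphere, no ribosomal protein gene passed the adjusted threshold between CCI and sham mice by edgeR or by DESeq2, against 0.0941% of all genes called either way by edgeR. An unadjusted edgeR p under 0.05 was found for 21 of the 82, against 6.86% of all genes. The median log2 fold change was 0.09 over the ribosomal protein genes, with 72 of 82 above 0 against 49.6% of all genes, and -0.001 over all genes. CCI contralateral libraries lay wholly above sham contralateral ones for 20 of the 82 genes and wholly below for none, against 4.0% above and 3.36% below among all genes. Rpl10 had the largest value, 0.43 ± 0.12 (SE, adjusted p = 0.379), and Rps27a had 0.17 ± 0.06 (SE, adjusted p = 0.505).

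Between the hemispheres of sham mice 1 of the 82 genes passed the test. The log2 fold change of sham ipsilateral against sham contralateral was below 0 in 77 of 82 and above 0 in 5, against 48.6% above 0 among all genes. The median was -0.20, against -0.004 over all genes. An unadjusted p under 0.05 was found for 52 of the 82, against 6.1% of all genes. Rpl37a, a zinc-binding large subunit protein, had 94.2 and 81.4 CPM in sham ipsilateral libraries, against 127, 110 and 128 CPM in sham contralateral ones. Those libraries did not overlap, and Rpl37a fell with a log2 fold change of -0.47 ± 0.08 (SE, adjusted p = 0.0276), the only gene called of all 14875 (0.00672%). Between 0 and 8 ribosomal protein genes were called lower here over the alternatives. Without the sham contralateral library of animal 6 there were 7, against 0.0471% of all genes. Without the CCI contralateral library of animal 1 or the CCI ipsilateral library of animal 5 there were 2, against 0.0135% each time. None was called without the sham contralateral library of animal 4 or 8 or the CCI contralateral library of animal 2, against at most 0.00673% of all genes. The Rpl37a call was also lost without the sham ipsilateral library of animal 6, which left 1 library in that group. Sham ipsilateral libraries lay wholly below sham contralateral ones for 54 of the 82 genes, against 11.0% of all.

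**Figure D5:**
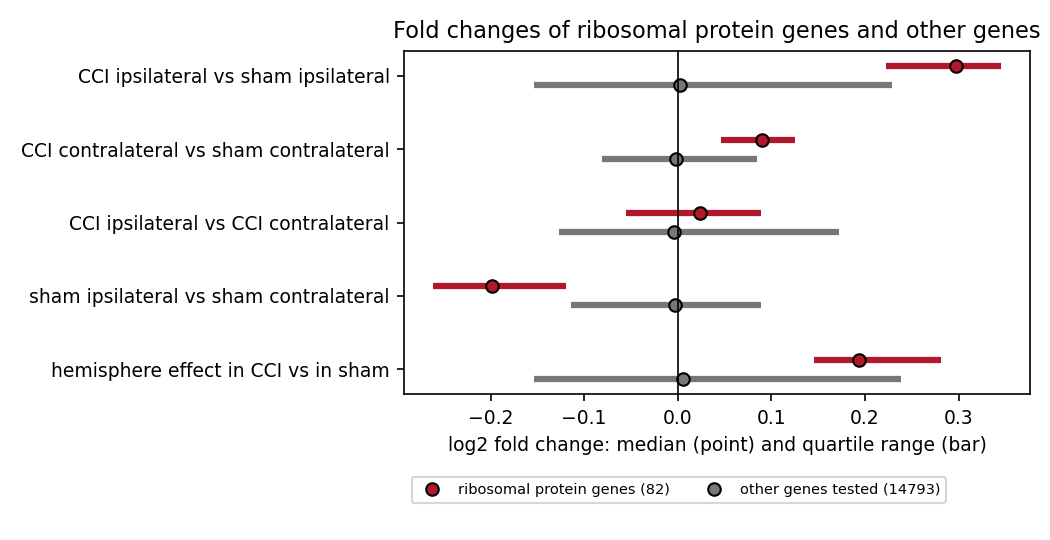
Median (point) and range between the quartiles (bar) of the log2 fold change of the 82 tested ribosomal protein genes (red) and of the 14793 other genes tested (grey) in the 5 comparisons. The medians of the ribosomal protein genes are 0.30, 0.09, 0.02, -0.20 and 0.19 from top to bottom, and those of the other genes lie within 0.01 of 0.

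The hemisphere difference was then compared between CCI and sham animals. The signed ipsilateral minus contralateral log2 value of CCI mice, less that of sham mice, was above 0 past the threshold for 12 of the 82 genes and below 0 for none, against 4.84% and 2.99% of all genes, with a median of 0.19. A value above 0 can come from a higher ipsilateral level in CCI or from a lower one in sham mice. Rplp0 had a difference of 0.46 ± 0.10 (SE, adjusted p = 0.00512) and Rpl37a 0.46 ± 0.10 (SE, adjusted p = 0.00385). For Rplp0 it combined 0.36 within CCI with -0.11 within sham mice, while for Rpl37a it combined -0.01 within CCI with -0.47 within sham mice. Rpl11 had -0.04 within CCI and -0.43 within sham mice, and Rps19 had 0.02 and -0.37, so that for Rpl37a, Rpl11 and Rps19 the value nearer 0 was that of CCI mice. With the animal as a block 12 genes were called again, 10 of them the same, against 4.78% of all genes higher and 4.25% lower. In that fit Rpl36a (adjusted p = 0.0571) and Rpl39 (adjusted p = 0.1) were not called. The calls did not hold with the sham ipsilateral hemisphere of animal 6 left out, which left 1 library in that group. Without the CCI ipsilateral library of animal 1, 7 genes were called higher, against 4.76% of all genes higher and 2.6% lower. Without the sham contralateral library of animal 6, 19 were, against 4.79% and 3.21%.

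Several other measures also differed between CCI ipsilateral and sham ipsilateral hemispheres. Microglia and macrophage markers summed to 1214 to 1821 CPM in CCI ipsilateral and 340 to 355 CPM in sham ipsilateral libraries, and all 16 rose. Neuronal markers summed to 8816 to 9648 CPM and 11633 to 12465 CPM, and 10 of 11 fell; in CCI contralateral libraries they summed to 10636 to 11138 CPM and in sham contralateral ones to 10743 to 11223 CPM, so the sham ipsilateral libraries were the highest. All 11 cell cycle genes and 6 of 9 astrocyte genes rose in CCI ipsilateral against sham ipsilateral libraries, and 7 of 13 mitochondrially encoded genes fell. Against CCI contralateral libraries the ribosomal protein median was 0.02, and 12.8% of all genes rose and 8.9% fell. There 15 of 16 microglia and macrophage markers, all 11 cell cycle genes and 7 of 9 astrocyte genes rose. Of the neuronal and mitochondrially encoded genes, 7 of 11 and 3 of 13 fell. Between sham hemispheres the ribosomal protein median was -0.20 and no gene of these lists was called. The microglia, cell cycle and neuronal medians were -0.12, -0.08 and 0.09 there. The part of these measures in the ribosomal protein values was not tested.

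Fold changes also varied with transcript length. Tested genes were divided into 5 bins of equal size by effective transcript length, read from the ratio of counts to TPM, and 78 of the 82 fall in the bin with the shortest transcripts. In that bin the other genes had a median log2 fold change of 0.06 in CCI ipsilateral against sham ipsilateral and -0.08 in sham ipsilateral against sham contralateral libraries, while in the longest bin the medians were -0.05 and 0.05. Both medians of the shortest bin have the sign of the ribosomal protein genes, at 0.30 and -0.20, and are smaller. In CCI contralateral against sham contralateral libraries that bin had 0.015, beside 0.09 for the ribosomal protein genes. For the difference of hemisphere effects the values were 0.06 and 0.19. In CCI ipsilateral against CCI contralateral libraries the signs were opposite, at -0.04 in the bin and 0.02 in the ribosomal protein genes. The part of length was not tested.

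Genes that act with the ribosome were described by lists, whose counts stand beside the shares of all genes: 12.5% rose and 10.0% fell in CCI ipsilateral against sham ipsilateral libraries, and 12.8% rose and 8.9% fell against CCI contralateral ones. Of 4 ribosomal proteins outside the naming rule, Rack1, listed under its older symbol Gnb2l1, and Rpl36al rose in CCI ipsilateral against sham ipsilateral libraries, by 0.40 (adjusted p = 3.18e-05) and 0.39 (adjusted p = 0.0033) on the log2 scale. Of 13 translation factors and other mRNAs of the TOP class, 6 rose and none fell, led by Pabpc1, the poly(A)-binding protein, at 0.45 ± 0.07 (SE), and Eef1a1, the elongation factor that brings aminoacyl-tRNA, at 0.35 ± 0.06 (SE). Against CCI contralateral libraries 3 of the 13 rose, with Pabpc1 at 0.48 and Eef1a1 at 0.26, and Nap1l1, a histone chaperone, fell.

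Factors that build ribosomes showed other values. Of 30 ribosome assembly factors none rose and Rrp12 fell with a log2 fold change of -0.27 ± 0.09 (SE, adjusted p = 0.0306) in CCI ipsilateral against sham ipsilateral libraries; against CCI contralateral ones Nop58 and Rrp9 fell and none rose. None of 11 RNA polymerase I genes was called in either comparison. Of 16 genes of mTORC1, S6 kinase, LARP1 and Myc, none rose and Rheb, the activator of mTORC1, and Mycn fell against sham ipsilateral libraries, and Myc rose while Rheb fell against CCI contralateral ones; 2 falls of 16 are near the share of all genes. Of 75 mitochondrial ribosomal protein genes 2 rose and 2 fell against sham ipsilateral libraries, with Mrps6 at 0.73 ± 0.14 (SE) and Mrpl3 at -0.28 ± 0.07 (SE), and their median was -0.01; against CCI contralateral libraries 2 rose and 5 fell.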

How the data were processed

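Polyadenylated RNA of 13 hemispheres was sequenced after TRIzol extraction and a stranded library kit, per the labels' protocols. The authors deposited expected counts per gene and TPM, per the file headers. The submitters' processing notes name RSEM, bcl2fastq, DESeq2 and GRCm38 (mm10) without versions. A further deposited table holds the authors' log2 estimates, a signed fold change as a score, and p-values. The sources used here give neither the aligner nor the strand setting of the counting, so antisense genes and copies can share reads.

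Counts, of which 9.76% were not whole, were rounded. They were tested with edgeR 4.0.16 (R 4.3.3, quasi-likelihood, robust, TMM scaling, group-wise filter on low counts) in 1 fit of 4 group means to 13 libraries, with Benjamini-Hochberg adjustment over 14875 genes and a threshold of 0.05. Each adjusted p in the text is edgeR's unless another tool is named. CPM are TMM-scaled. SE is approximate, the size of the log2 fold change divided by the root of edgeR's F statistic. The scripts were tested on simulated data. Alternatives used DESeq2 1.42.0, limma 3.58.1, other scalings, the low-count filter left off, log2(TPM + 1) and log2(TPM + 0.1), each library left out, the animal as a block, and other sham groups.

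Animal numbers pair the hemispheres, since they come from 1 animal. Deviations from group means correlated at 0.00348 to 0.0882 within an animal and -0.06 to 0.0268 between animals. CCI and sham mice share no animal. Chi-square per degree of freedom between replicates was 2.06 to 3.99, so no library was counted as a duplicate. Each animal gave 1 library per hemisphere, so replicates are animals.

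The genes and lists were chosen with earlier results of these data known. Named genes were, per comparison, up to 6 called genes with the largest log2 fold change each way, genes of set roles (paralogs and parents, P stalk, Rps6, Rpl5, Rpl11, Rpsa, Rps27a, Rps4x, Rps19, Rpl13a), those too low to test, the 3 highest and 3 lowest by TPM, and the leading called genes of each list. Others named were chosen after their values were seen, and some genes the rule covers are not reported here by name. Positions are from GENCODE M21 on GRCm38 and promoters from RefSeq.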

Additional observations from a re-analysis of the deposited data

Results flagged for a closer look

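In 58 groups of 4 libraries of named genes, 2 held a library whose gap to its nearest neighbour was large for the group's range; chance gives about 1 in 20. Rpl18 had 89.8 CPM in the CCI ipsilateral library of animal 2, below the other 3, and Rpl7a had 202 CPM in the same library.

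The signed hemisphere difference, ipsilateral minus contralateral, was higher in CCI than in sham mice by a test of the difference itself (edgeR interaction, log2 scale) for Rplp0 at 0.46 (adjusted p = 0.00512), Rpl37a at 0.46 (adjusted p = 0.00385), Rpl32 at 0.44 (adjusted p = 0.00426) and Rps9 at 0.40 (adjusted p = 0.00928). The same held for Rpl11 at 0.39 (adjusted p = 0.0464), Rps19 at 0.39 (adjusted p = 0.0112) and Rpl18 at 0.38 (adjusted p = 0.0325). Rps4x, Rpl36a, Rps20 and Rpl39 had differences of 0.36 (adjusted p = 0.00819), 0.36 (adjusted p = 0.0225), 0.35 (adjusted p = 0.022) and 0.34 (adjusted p = 0.0453). With the animal as a block, Rpl36a (adjusted p = 0.0571) and Rpl39 (adjusted p = 0.1) no longer passed. For Rpl37a, Rpl11 and Rps19 the difference was within 0.04 of 0 in CCI mice and below 0 in sham mice, where Rpl37a alone passed the test.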

How the results depend on the processing

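Over all alternatives run, the median log2 fold change of the ribosomal protein genes kept its sign in every comparison except CCI ipsilateral against CCI contralateral, where it was -0.0055 without the CCI ipsilateral library of animal 1 and up to 0.046 without others. In CCI ipsilateral against sham ipsilateral the calls numbered 30 to 68 with 1 library left out, and the median ran from 0.23 to 0.36. The median was 0.35 with log2(TPM + 1) or log2(TPM + 0.1), 0.11 against sham contralateral and 0.18 against all 5 sham libraries. Against sham contralateral 22 rose and 1 fell, beside 12.4% and 8.85% of all genes. In CCI contralateral against sham contralateral 1 gene was called with no filter, where 0.294% of all genes were called higher and 0.139% lower. In CCI ipsilateral against CCI contralateral the replicate block (animal) gave 8 higher and 5 lower, against 14.1% and 11.4% of all genes. There limma gave 8 higher with log2(TPM + 1) and 7 with log2(TPM + 0.1), against 11.8% and 11.3% (medians 0.0802 and 0.0803). Leaving out a library gave 1 to 8 higher and 3 to 6 lower, against 9.71% to 13.7% and 6.1% to 9.64% of all genes. In sham ipsilateral against sham contralateral the number lower was 8 with no filter (0.0694% of all genes) and 7 by DESeq2 (0.088%). It was 0 with log2(TPM + 1) (0%) and 6 with only the 2 groups fitted (0.113%). With a library left out it was 0 to 7, against 0% to 0.0471% of all genes. For the difference of hemisphere effects leaving out a library gave medians of 0.15 to 0.25. At most 19 genes were called, without the sham contralateral library of animal 6, against 4.79% of all genes higher and 3.21% lower. The replicate block changed no other call count by over 1.5 times. For the difference of hemisphere effects 10 of its 12 calls were shared, and the block called 4.78% of all genes higher and 4.25% lower. The cause of these changes was not tested. With 2 sham ipsilateral libraries, 1 library can decide a call.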
